A study of Mus musculus with 5 samples.

Results

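Mouse genes named Zfp encode zinc finger proteins, and they are described here in C2C12 myoblasts. Members were every gene whose symbol is Zfp followed by a number, chosen by a mean normalized count over all 5 samples of at least 50. This gave 286 members of 347 Zfp genes in the table, which lists 12615 genes in all. The mean level chose them, so their being detected is not a result. The genes just inside were Zfp2 at a mean of 50.5, Zfp808 at 50.5 and Zfp128 at 51.3, and those just outside were Zfp97 at 47.2, Zfp810 at 46.4 and Zfp420 at 46.02. All 286 members also passed the lower limit for testing, a mean of 10.

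C2C12 is an established line of mouse myoblasts, the proliferating precursors of skeletal muscle fibres. All 5 samples were transfected with plasmid DNA and taken at 5 hours. The control group holds 3 samples with the empty vector pCMVmiR, and the other group holds 2 samples that the labels call miR-16 knockdown. The treatment protocol speaks of a plasmid for miR-16-1, and the mature miRNA was not measured here. Whether miR-16 was lowered or raised is known only from the labels and from the authors' deposited comparison, headed Inh vs. Control. The labels do not speak of separate cultures within a group. The spread behind each p-value may therefore be technical.

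Estimated depth was 15149667 to 20079060 reads per sample. Empty vector samples 1 and 3 were sequenced on 1 flow cell (A), and empty vector 2 and both knockdown samples on another (B), per the column names. The group and the flow cell therefore overlap in part, and values within flow cell B, whose single control is empty vector 2, are given beside many of the pooled ones. Of the fixed myoblast markers, 6 of 6 were listed, with Myod1 at 1536 to 1685 normalized counts and summed levels of 6720 to 7384 with empty vector and 6656 and 7159 with knockdown. Of 5 markers of differentiated muscle, 1 was listed, Acta1, at 34.9 to 59.3 normalized counts. Of the markers of fibroblasts, endothelium, leukocytes and adipocytes, 1 per type was listed. Pdgfra, of the fibroblast list, stood at 192 to 262 and the other 3 at 1.88 to 22.7.

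A zinc finger is a short fold in which cysteine and histidine residues hold a zinc ion. In the classical C2H2 finger a pair of each holds the ion, and tandem arrays of such fingers read DNA sequence. Many C2H2 proteins carry a KRAB box, which recruits the co-repressor Trim28 and through it the histone methyltransferase Setdb1 to silence retroelements and imprinted loci. Other genes with the same name prefix encode unrelated proteins, among them the CCCH proteins of the Zfp36 family, which bind AU-rich elements of messenger RNAs and promote their decay. MicroRNA miR-16 pairs through its seed with sites in 3' UTRs and lowers the targeted messenger.

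The coding sequence of 1 finger per protein shows both architectures. It was taken from the GENCODE M21 transcript with the longest coding sequence of each gene, and capitals mark the codons of the zinc-holding cysteines and histidines. The C2H2 fingers are the first match in Zfp292 (chromosome 4, coding bases 1705 to 1767) and in Zfp568 (chromosome 7, coding bases 1093 to 1155). The CCCH fingers are the first of each Zfp36 protein (chromosomes 7, 12 and 17).
Zfp292: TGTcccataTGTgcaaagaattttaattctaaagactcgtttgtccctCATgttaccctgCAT
Zfp568: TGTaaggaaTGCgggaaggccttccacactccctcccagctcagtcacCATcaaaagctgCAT
Zfp36: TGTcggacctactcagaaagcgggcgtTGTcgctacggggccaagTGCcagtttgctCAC
Zfp36l1: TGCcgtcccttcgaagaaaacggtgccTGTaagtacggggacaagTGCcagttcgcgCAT
Zfp36l2: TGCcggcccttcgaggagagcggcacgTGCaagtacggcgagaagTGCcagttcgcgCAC
Over these 60 bases Zfp36l1 and Zfp36l2 shared 49, Zfp36 and Zfp36l1 shared 42, and Zfp36 and Zfp36l2 shared 40.

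The mature miR-16-5p sequence, from RefSeq on GRCm38.p6 (chr14:61631936-61631957, minus strand), is shown because members are sorted below by sites for its seed. Capitals mark the seed, bases 2 to 8.
miR-16-5p: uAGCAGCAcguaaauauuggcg
Sites were searched in the longest annotated 3' UTR of each gene on the transcript strand, in 3 forms. TGCTGCTA is an 8mer, TGCTGCT with another base next is a 7mer-m8, and GCTGCTA with another base than T ahead is a 7mer-A1. A site is a match of letters and was not shown to be bound. The windows below belong to members described in the results, with the site in capitals.
Zfp106, 8mer: acagtggtttgTGCTGCTAgtttataggtg
Zfp622, 8mer: aatggttccttTGCTGCTActtcatttgtt
Zfp781, 8mer: gtaaaggaggtTGCTGCTAagcctggtgac
Zfp652, first 7mer-m8: tacgcattctgTGCTGCTcttctcagagg
Zfp652, second 7mer-m8: attcattaggcTGCTGCTctcaaactgag
Zfp568, 7mer-A1: gaggagggaaaGCTGCTAattactaaaca
Zfp568, 7mer-m8: tttaaaatgacTGCTGCTtatgtctagtg

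Levels of the members spanned a wide range. The median member had a mean of 229 normalized counts, 28 members were above 1000 and 129 were below 200. The 10 highest members held 30.6% of the summed signal of the group. The share of all signal that fell on the members was 0.826% to 0.848% with empty vector, and 0.839% and 0.809% with knockdown.

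To compare genes, the mean was divided by the length of the longest annotated transcript, which need not be the form expressed. On this per-kb scale Zfp36l2, an mRNA decay factor, stood at 4562 normalized counts per kb, ahead of every other member. Its values were 16081, 16123 and 15407 normalized counts with empty vector and 16685 and 16218 with knockdown. Zfp207, a kinetochore and spindle protein gene, followed at 1049 per kb, and Zfp706, which encodes a very short protein, at 926 per kb. Zfp106, an RNA-binding protein needed to maintain nerve and muscle in mice, stood at 640.3 per kb. Zfp91, which encodes a ubiquitin ligase, had 571 per kb, and Zfp703, a transcriptional repressor amplified in human breast cancer, had 525 per kb. The level of Zfp36l2 lay far above its relatives, since Zfp36 and Zfp36l1 had 140.4 and 137 per kb.

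Members with a called KRAB box had lower levels than those without a call. A KRAB box was called from the translated sequence by 2 residue patterns of its A part, in proteins with at least 1 C2H2 match. It was called in 152 members and not in 134. A box that departs from these patterns would be missed. The 134 also hold Zfp469 and Zfp862-ps, for which no complete coding sequence was annotated. The median level was 41.9 normalized counts per kb with a call and 105 per kb without. The ranges, 8.62 to 385 and 6.67 to 4562 per kb, overlapped. The mean level was part of the rule that chose members, so this is a description and was not tested. The highest member with a called KRAB box was Zfp52, at 385 per kb. It had 1250, 1233 and 1273 normalized counts with empty vector and 1181 and 1159 with knockdown. Zfp445, which helps to maintain imprinted methylation, was among the highest of them, at 263 per kb.

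**Figure D1:**
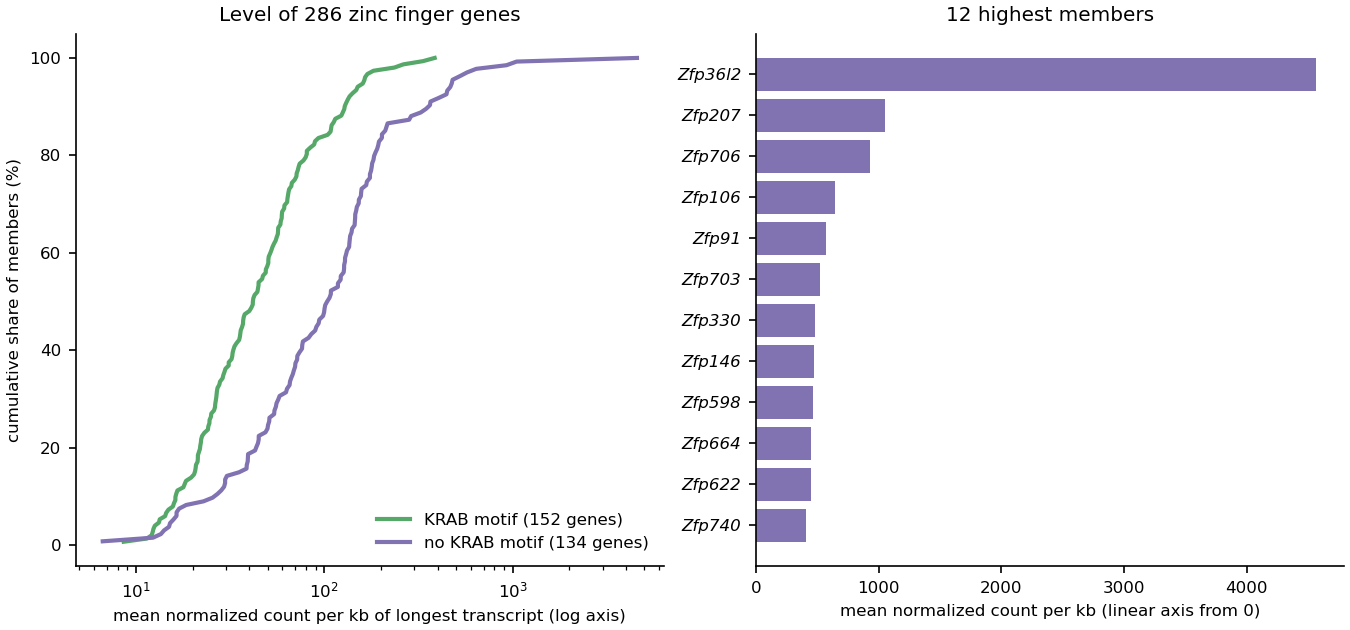
Left, cumulative share of members (%) against the mean normalized count per kb of longest transcript (log axis), for the 152 members with and the 134 without a KRAB motif. Right, the 12 members with the highest mean per kb as bars from 0; Zfp36l2 at 4562 stands above Zfp207 at 1049, and none of the 12 carries the KRAB motif.

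The members are named for zinc fingers, so a high share with finger matches follows from the name and is a description. A C2H2 finger was counted as a cysteine, 2 to 4 residues, a cysteine, 12 residues, a histidine, 3 to 5 residues and a histidine. It was found in 274 of 286 members, against 593 of 11990 tested genes, members included. The median member had 10 fingers, and Zfp142, with 36, had the most. The 12 members without a match included Zfp36, Zfp36l1 and Zfp36l2, each of which held 2 CCCH patterns instead. For Zfp469 and Zfp862-ps no complete coding sequence was annotated, so their count of 0 carries no information.

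Chromosome 7 carried 68 members, or 23.8% of them, against 7.33% of all tested genes. Chromosome 17 carried 39 (13.6% against 4.96%) and chromosome 13 carried 24 (8.39% against 3.98%). Of the members with a KRAB motif, 39 lay on chromosome 7, 33 on chromosome 17 and 18 on chromosome 13. Between knockdown and empty vector, the median log2 difference was 0.015 for members on chromosome 7, -0.023 on chromosome 17, -0.15 on chromosome 13 and -0.065 elsewhere. Within flow cell B these medians were 0.047, -0.0048, -0.029 and -0.023, so the distance of chromosome 13 from the rest shrank. No member of the 4 groups passed the test described next.

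No member passed the threshold between miR-16 knockdown and empty vector. Values were compared as log2(value + 1) by limma across 11990 genes with Benjamini-Hochberg adjustment over all of them, and the lowest adjusted p of a member was 0.527. Over all genes 0 passed as well (0% called). At an unadjusted p under 0.05, 18 members were lower with knockdown, or 6.29%, where 5.3% of all tested genes were. At the same limit 3 members were higher, or 1.05%, against 2.83% of all tested genes. The members' groups did not overlap for 46 genes lower and 24 higher with knockdown, or 24.5% in all, against 23.8% of all tested genes. These shares lie near the background, so they are not a result about zinc finger genes.

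The members as a whole lay slightly below all genes. Of 286, 166 had a negative log2 difference (58.04%), against 49.8% of all tested genes. Their median log2 difference was -0.041, against 7.3e-04 for all tested genes, and the middle 50% of members lay between -0.16 and 0.083. The pooled SD between samples of a group, taken on the per-sample medians of the members, was 0.041. That is the spread of single samples and not of a difference between groups. On flow cell B the median log2 difference of the members was 7.1e-05. The per-sample medians of the members, relative to each gene's mean, were 0.045 in empty vector 1, -0.0082 in empty vector 2 and 0.045 in empty vector 3. They were 0.019 in knockdown 1 and -0.062 in knockdown 2. Empty vector 2 thus lay below knockdown 1, and the groups overlapped.

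Single libraries decided the counts of calls. Without knockdown 1, where 0.892% of all genes were called, 4 members passed: Zfp292, Zfp462, Zfp106 and Zfp469, all lower. Without empty vector 2, 28 genes of the table passed (0.234%) and 0 members. With replicate number as a block, a fit that drops empty vector 3 and has 4 samples, 2.59% of all genes and 4 members passed: Zfp292, Zfp384, Zfp462 and Zfp469, all lower. The count of members lower at an unadjusted p under 0.05 was 9 without empty vector 1 (3.28% of all tested genes), 6 without knockdown 2 (1.9% of all) and 4 on flow cell B (1.79% of all). The standard errors of the members' log2 differences ran from 0.066 to 0.36, with a median of 0.16. With 5 samples, differences well above these also went uncalled. Zfp292, at -0.50 with a standard error of 0.11, had an adjusted p of 0.527 (limma).

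Among the members with lower values, the smallest p belonged to Zfp292, a long C2H2 protein whose human counterpart is linked to intellectual disability. Its normalized counts were 1161, 983 and 1196 with empty vector and 873 and 706 with knockdown, each in replicate order, as in all such lists. Both knockdown samples lay below the 3 controls, of which empty vector 2 was the nearest. The group means were 1113 ± 114 (SD, n = 3) and 789 ± 119 (SD, n = 2), a log2 difference of -0.50 with a standard error of 0.11 (limma, adjusted p = 0.527). On flow cell B it was -0.32, and without knockdown 1 it was -0.65 (adjusted p = 0.0347).

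Zfp608, a relative of Zfp609 that represses recombination genes in mouse thymocytes, was the member with the lowest log2 difference, at -0.58 (standard error 0.18, adjusted p = 0.535). It had 198, 189 and 241 normalized counts with empty vector and 149 and 130.4 with knockdown. The 2 groups did not overlap, and on flow cell B the log2 difference was -0.44.

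Zfp462, which carries 33 C2H2 matches and restrains lineage genes in mouse embryonic stem cells, had 1213, 1079 and 1168 normalized counts with empty vector and 1040.5 and 747 with knockdown. Knockdown 1 lay just under the lowest control and knockdown 2 far below it. The log2 difference was -0.39 (standard error 0.12, adjusted p = 0.535), -0.29 within flow cell B, -0.62 without knockdown 1 (adjusted p = 0.0261) and -0.15 without knockdown 2.

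Zfp106, the second most abundant member, had 6222, 5838 and 6634 normalized counts with empty vector and 5875 and 4515 with knockdown. Knockdown 1 lay above empty vector 2, so the groups overlapped. The log2 difference was -0.27 (standard error 0.10, adjusted p = 0.565), -0.18 within flow cell B, -0.083 without knockdown 2 and -0.46 without knockdown 1 (adjusted p = 0.0452).

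Zfp652, whose human counterpart represses transcription with a partner of the ETO family, had 307, 243 and 247 normalized counts with empty vector and 194 and 202 with knockdown. Its log2 difference was -0.41 (standard error 0.16, adjusted p = 0.565). Both knockdown samples lay below every control. On flow cell B it was -0.29.

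The other members of the lower 10 had log2 differences of -0.24 to -0.54 and adjusted p of 0.565. Zfp36l1 had 402, 501 and 440.3 normalized counts with empty vector and 314 and 385 with knockdown, a log2 difference of -0.36, and -0.53 on flow cell B. The X-linked KRAB gene Zfp182 had a log2 difference of -0.54, which was -0.83 without knockdown 1 and -0.26 without knockdown 2. Zfp800, a regulator of pancreas development in mice, had -0.33, and -0.13 on flow cell B. Zfp280d stood at -0.32, and at -0.18 both on flow cell B and without knockdown 1. Zfp644, which binds the histone methyltransferases G9a and GLP, had -0.24, with -0.16 on flow cell B and -0.15 without knockdown 2. Zfp36l1 came to -0.21 without knockdown 1. The values of Zfp36l1, Zfp182, Zfp800, Zfp280d and Zfp644 did not overlap between the groups. This was true of 12.4% of all tested genes in this direction, but the lower 10 were chosen by small p, which favours separated groups.

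**Figure D2:**
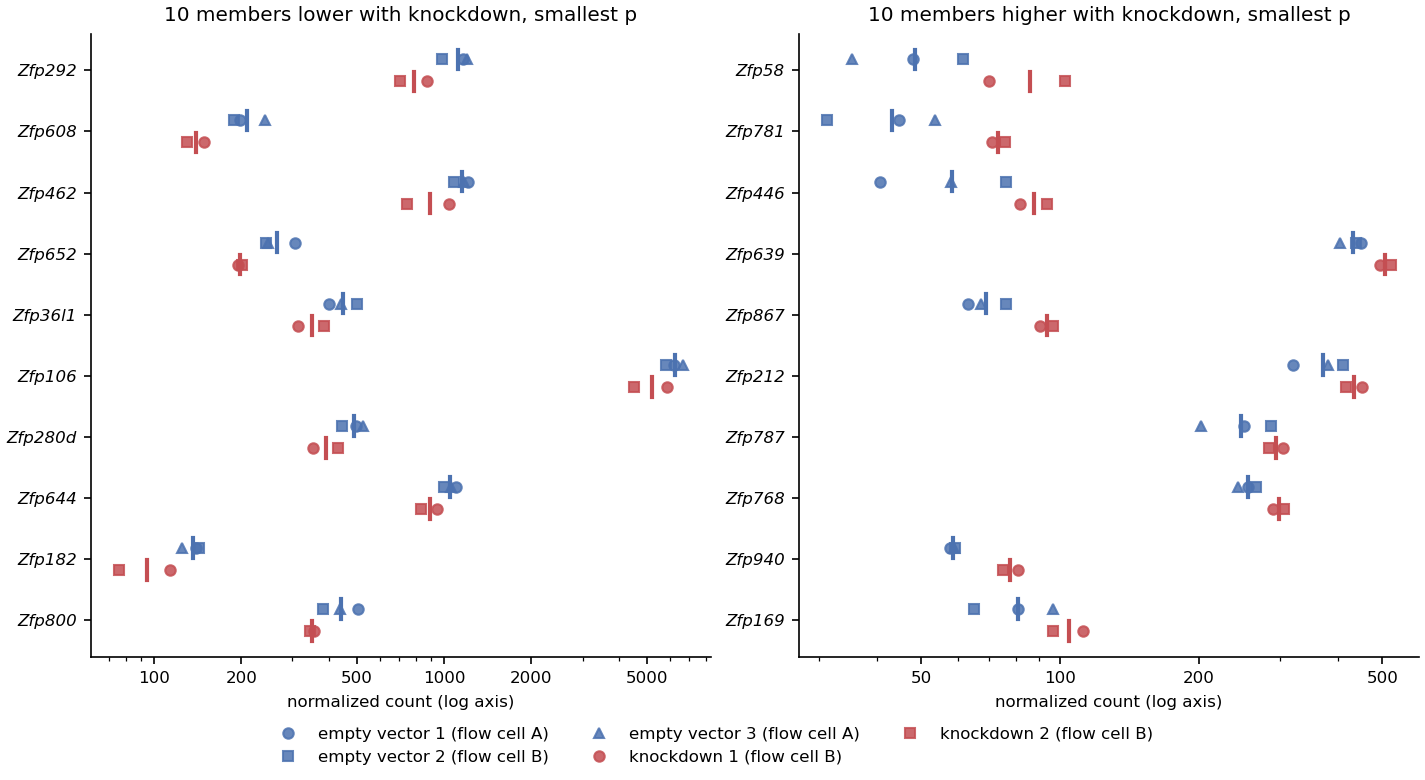
Normalized count (log axis) of the 10 members with the smallest p in each direction, in each of the 5 samples; vertical bars are group means, and colour and symbol give the group and the replicate. Knockdown values lie apart from all controls for Zfp292, Zfp608 and Zfp58, and overlap with them for Zfp106 and Zfp787; no gene passed the adjusted threshold.

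Among the members with higher values, 3 were past an unadjusted p of 0.05, and all of them had low counts. Zfp58, a KRAB gene of the chromosome 13 group, had 48.1, 61.7 and 35.4 normalized counts with empty vector and 70.1 and 102 with knockdown. The groups did not overlap, although empty vector 2 and knockdown 1 were close. The log2 difference was 0.83 (standard error 0.31, adjusted p = 0.565). Within flow cell B it came to 0.45.

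Zfp781 had 44.6, 31.3 and 53.5 normalized counts with empty vector and 71.04 and 75.8 with knockdown, a log2 difference of 0.79 (standard error 0.31, adjusted p = 0.565). None of its 5 values came out as a whole number of reads. Whether its reads were shared with other loci was not tested, and its level is uncertain. Zfp446 had 40.6, 76.3 and 57.9 with empty vector and 81.9 and 93.8 with knockdown, a log2 difference of 0.63 (standard error 0.29, adjusted p = 0.606). On flow cell B these log2 differences were 1.21 and 0.20, and Zfp446 had 0.40 without empty vector 1.

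The remaining 7 of the higher 10 were Zfp639, Zfp867, Zfp212, Zfp787, Zfp768, Zfp940 and Zfp169, with log2 differences of 0.22 to 0.44 and adjusted p of 0.612 to 0.713. Their differences within flow cell B were 0.033 to 0.67, with Zfp787 going from 0.27 to 0.033, Zfp212 from 0.23 to 0.076, Zfp867 from 0.44 to 0.29 and Zfp169 from 0.38 to 0.67. Zfp787 was at 0.13 without empty vector 3, Zfp212 at 0.13 without empty vector 1 and Zfp169 at 0.23 without empty vector 2. Zfp639 had 449.6, 439 and 404 normalized counts with empty vector and 494 and 521 with knockdown. Zfp787 was the 1 gene of these whose groups overlapped. Non-overlap upwards was seen for 11.4% of all tested genes, but the higher 10 were chosen by small p, which favours separated groups.

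The CCCH family showed no common direction. Zfp36, an immediate early gene in many cells, had 413, 376 and 351 normalized counts with empty vector and 396 and 422 with knockdown, a log2 difference of 0.11 (adjusted p = 0.841). Zfp36l2 had 0.052 (standard error 0.066, adjusted p = 0.856), and the values given above for Zfp36l1 lay on the lower side. Both knockdown values of Zfp36l2 lay just above its highest control.

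In the list of RNA, splicing, ribosome and mitosis genes, 7 of 13 were lower and 6 higher, with a median log2 difference of -0.0090. Zfp106 and Zfp638, an RNA-binding protein of nuclear speckles, were the 2 lower ones past an unadjusted p of 0.05, and 0 were higher. They were 15.4% of the list, against 5.3% of all tested genes and 14.2% of those of 4550 nt or more. The list had a median longest transcript of 4417 nt, below that length, so the 14.2% is not matched to the list as a whole. With the trend on the longest transcript removed, Zfp106 went from -0.27 to -0.082 and Zfp638 from -0.21 to -0.018. With the trend on the median transcript removed they had -0.30 and -0.23. Zfp207 had 3548, 3193 and 3831 normalized counts with empty vector and 3272 and 3349 with knockdown, so the groups overlapped. Zfp598, which marks collided ribosomes for rescue, had 1499, 1677 and 1499 against 1682 and 1458, with overlap as well. Zfp622, a factor of large ribosomal subunit maturation, had 1985, 2221 and 1415 against 2238 and 2119.5, and empty vector 3 stood apart from the other 4 samples. Zfp706 kept within 3963 to 4201 in all samples.

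In the list of transcription factors with described functions, 21 of 27 measured genes were lower and 6 higher, with a median log2 difference of -0.086. Of them 7 were lower at an unadjusted p under 0.05 and 0 higher, and 0 passed over all genes. The 7 were 25.9% of the list, against 5.3% of all tested genes and 14.2% of those of 4550 nt or more. The list holds long transcripts, with a median of 6095 nt against 3840 nt for all members. With the trend on the longest transcript removed its median was -0.017, and with the trend on the median transcript removed it was -0.086. Zfp148, a factor that binds G-rich promoters, had 1682, 1591 and 1510 normalized counts with empty vector and 1438 and 1465 with knockdown. Zfp609, a cofactor of transcription in neural progenitors of mice, had 1606, 1328 and 1459 against 1489 and 1058. The first of these did not overlap between groups and the second did.

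Of the list of KRAB genes known for imprinting and retroelement silencing in mice, 6 of 10 were members, 3 lower and 3 higher, with a median log2 difference of -0.047. Zfp809, which brings Trim28 to leukaemia virus DNA, had 301, 248 and 243 normalized counts with empty vector and 239 and 167 with knockdown, a log2 difference of -0.39 (adjusted p = 0.597). Zfp568, a repressor of the placental Igf2 transcript, had 713, 621 and 616 against 607 and 478, a log2 difference of -0.27 (adjusted p = 0.597). In both, knockdown 1 lay just below the lowest control, and without knockdown 2 the log2 differences were -0.135 and -0.095. They were -0.65 and -0.44 without knockdown 1, and -0.31 and -0.20 on flow cell B. Zfp57, which protects imprinted methylation, had 295, 290 and 256 against 265 and 296, with overlap between the groups.

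Genes that work with the KRAB box had a median level of 555 normalized counts per kb. Of the fixed list of co-repressor genes, 38 of 39 were tested, 25 with lower and 13 with higher values, a median log2 difference of -0.051, and 0 passed. At an unadjusted p under 0.05, 4 were lower and 1 higher. The lower share was 10.5%, against 5.3% of all tested genes and 14.2% of those of 4550 nt or more. The list had a median longest transcript of 4034 nt, below that length, so the 14.2% is not matched to the list as a whole. The longest transcripts of these 4 lower genes were 6697 to 10275 nt. Trim28 was added for its role once values were known, and it had 8995, 7564 and 7582 normalized counts with empty vector and 7581 and 7991 with knockdown. Its log2 difference was -0.043 (adjusted p = 0.911) and turned to 0.041 on flow cell B. By the smallest p, Atf7ip, the partner of Setdb1, had 721, 726 and 801 against 646 and 567, a log2 difference of -0.31 and -0.26 on flow cell B.

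Further genes of that list named by the same rule were Trim33, Chd4, Atrx and Morc2a on the lower side, with log2 differences of -0.24, -0.25, -0.22 and -0.16, and Sumo2 at 0.21. Their adjusted p-values lay between 0.565 and 0.679. Within flow cell B the values were -0.19, -0.23, -0.083 and -0.17, and 0.11 for Sumo2. Chd4, a chromatin remodeller of the NuRD complex, had 9263, 8947 and 9057 normalized counts with empty vector and 8714 and 6718 with knockdown, so that knockdown 2 stood apart. Without knockdown 1 its log2 difference was -0.44 (adjusted p = 0.036), and without knockdown 2 it was -0.061. Removing the trend on the longest transcript put Atrx, whose transcript reaches 10275 nt, at 0.0028 and Chd4 at -0.14. Removing the trend on the median transcript put them at -0.25 and -0.28, so their loss depended on which length was used.

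Transcript length moved with the comparison in the members as it did in all genes. The log2 difference changed by -0.081 per doubling of transcript length across the 286 members and by -0.089 across 11901 tested genes with an annotated length. Across members Pearson's r was -0.26 (n = 286), and across all those genes it was -0.33; genes share the same 5 libraries, so no p is given. On flow cell B the slopes were -0.044 for members and -0.037 for all genes. Per doubling of the median annotated transcript of each gene the slopes were weaker, at -0.026 for members and -0.049 for all genes.

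The 96 shortest members, of up to 3187 nt, had a median log2 difference of 0.029, with 52 higher and 44 lower. The 94 members of middle length had -0.0077. The 96 longest, from 4550 nt, had -0.11, with 24 higher and 72 lower. All tested genes, cut at the same lengths but with no outer limits, had 0.062, -0.0044 and -0.095. The short set of all genes had a median transcript of 2117 nt, against 2625.5 nt for the short members. Members of the longest group were lower at an unadjusted p under 0.05 in 10 cases (10.4%), against 14.2% of all tested genes in that range of length.

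**Figure D3:**
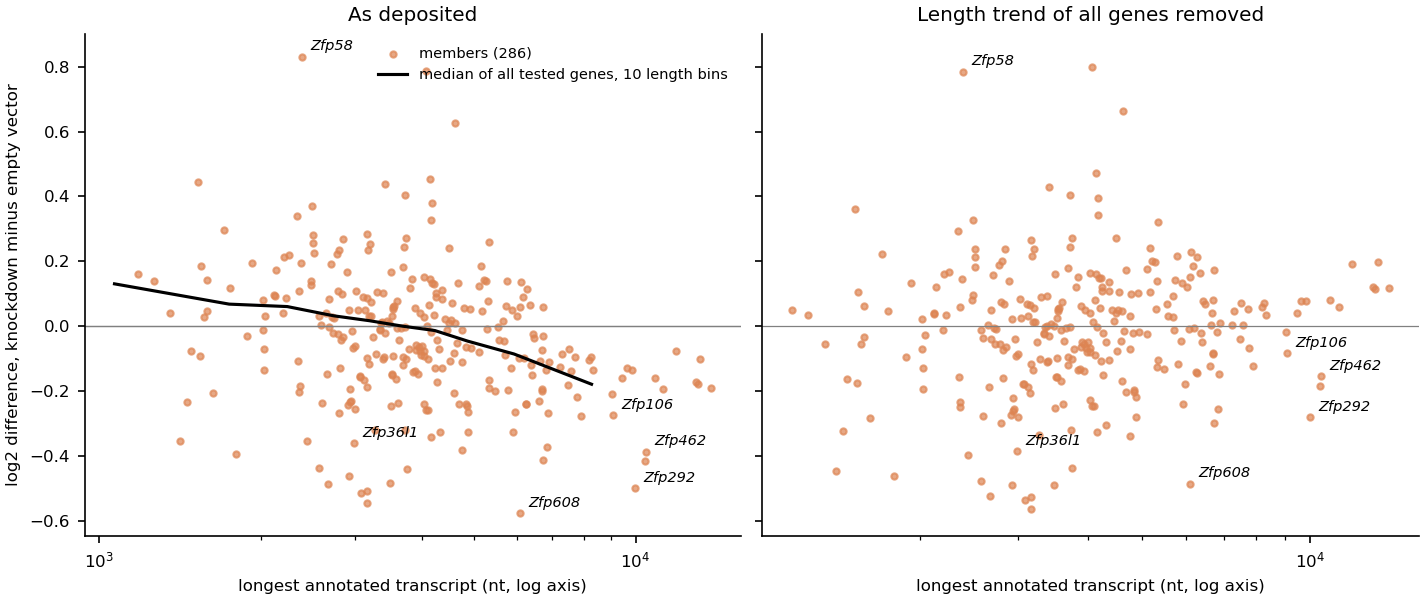
Log2 difference, knockdown minus empty vector, of the 286 members against their longest annotated transcript (nt, log axis), as deposited (left, with the median of all tested genes in 10 length bins as a line) and with the trend of all genes on that same length removed (right). The members follow the line on the left, and Zfp292 moves from -0.50 to -0.28 on the right while Zfp58 and Zfp36l1 stay at 0.78 and -0.38.

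Length trends also differed between libraries of the same group. Across members, the slope per doubling of length was 0.039 in empty vector 1, -0.0052 in empty vector 2 and 0.063 in empty vector 3. It was -0.012 in knockdown 1 and -0.086 in knockdown 2. Over all genes, in the same order, these slopes were 0.071, -0.017, 0.052, -0.014 and -0.092. Empty vector 2 and knockdown 1, both on flow cell B, lay close to each other, and knockdown 2 had the steepest decline. For the 96 longest members the medians relative to each gene's mean were 0.084, -0.0036 and 0.073 for the controls, against -0.0097 and -0.12 for knockdown.

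**Figure D4:**
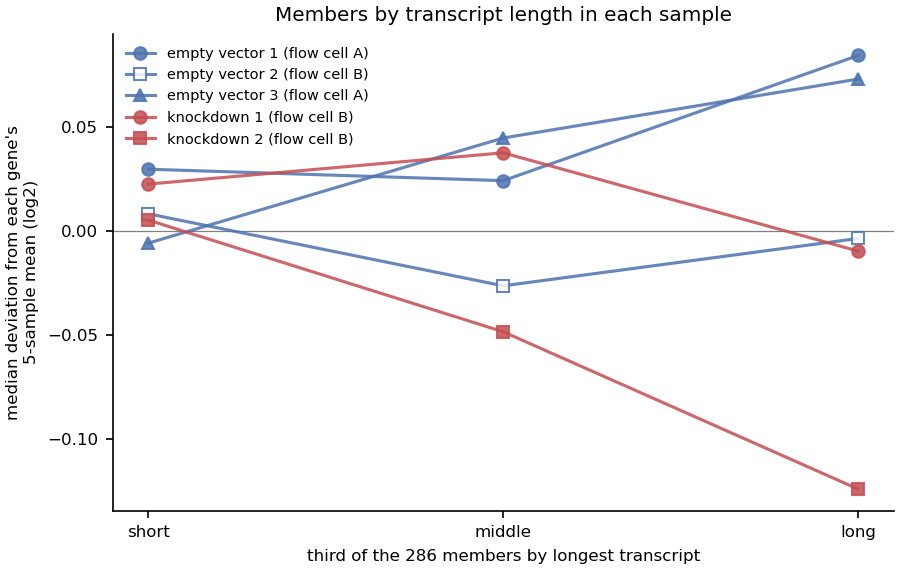
Median deviation of members from each gene's mean over 5 samples (log2), for the 96 shortest, 94 middle and 96 longest members by transcript length, with 1 line per sample. The lines lie between -0.0059 and 0.030 for the short members and spread from -0.12 in knockdown 2 to 0.084 in empty vector 1 for the long ones.

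A trend on length, fitted to all genes in each sample, was removed with either of 2 lengths per gene, the longest or the median annotated transcript. The form expressed here was not measured, and the 2 lengths gave different results. With the longest transcript the long members moved most. Zfp292, with a transcript of 9986 nt, went from -0.50 to -0.28, Zfp462 (10465 nt) from -0.39 to -0.15, Zfp652 (10433 nt) from -0.41 to -0.18 and Zfp106 (9085 nt) from -0.27 to -0.082. Zfp608 (6095 nt) went from -0.58 to -0.48. Of shorter members, Zfp36l1 came to -0.38, Zfp182 to -0.56, Zfp58 to 0.78 and Zfp809 from -0.39 to -0.46. The median of all members became -0.0039, with 11 members lower at an unadjusted p under 0.05, where 2.97% of all tested genes were, and 4 higher, where 2.65% were. With the median transcript Zfp292 had -0.28 as well and Zfp608 -0.48, but Zfp462 had -0.29, Zfp652 -0.30 and Zfp106 -0.30, the last of these lower than as deposited. The median of the members was then -0.020, with 18 members lower (4.85% of all tested genes) and 3 higher (2.82% of all). The shrinkage of Zfp462, Zfp652 and Zfp106 thus depended on the length used, and that of Zfp292 was seen with both. The 2 lengths are not equally apt for every gene. The median annotated transcript of Zfp106 was 677 nt, too short to encode its protein of 1888 residues. Such members were not rare. Others included Zfp318, with 958 nt for 2237 residues, Zfp217, with 594 nt for 1041, and Zfp280d, with 2089 nt for 974. Their number was not counted, and the group values with the median-transcript trend removed include them. For such members the trend on the median transcript was read at a length below that of the coding sequence. For Zfp292 the 2 lengths were close, at 9986 and 9963.5 nt. Whether RNA quality or library preparation moved with length was not tested.

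Members with and without a miR-16 site had nearly the same median as deposited. Of 281 members with an annotated 3' UTR, 31.3% held at least 1 site, against 29.2% of all tested genes with a 3' UTR. The members' UTRs had a median of 1586 nt, against 1225 nt for all those genes. The 88 members with a site had a median of -0.035 in log2 difference, against -0.042 for the 193 without. Over all tested genes the medians were -0.020 with and 0.0087 without a site.

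With the trend on the longest transcript removed, the members' medians were 0.031 with a site and -0.034 without, and those of all genes 0.020 and -0.0046. With the trend on the median transcript removed the order turned, to -0.034 with and -0.0035 without a site for members and -0.0070 and 0.0078 for all genes. The 18 members with 2 or more sites, Zfp652 and Zfp568 among them, had a median of -0.13 as deposited, 16 of them lower. It was 0.015 with the longest-transcript trend removed, -0.086 with the median-transcript trend removed and -0.050 on flow cell B. Their transcripts had a median length of 7082 nt. Of the 10 members with an 8mer, 6 were higher and 4 lower. Of the genes with a printed 8mer, Zfp781 had a log2 difference of 0.79 and Zfp106 of -0.27. Zfp622 had 0.24, which was 0.053 without empty vector 3 and -0.028 on flow cell B, so its direction turned.

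All 286 members were listed in the authors' deposited table, and 76 had an adjusted p-value there. Zfp292 was the single member under 0.05 in the authors' deposited table, with a ratio of inhibition to control of 0.709 and an adjusted p of 0.013. That limit was passed by 70 of 6588 genes there (1.06%). The next members in the authors' deposited table were Zfp462, with a ratio of 0.774 and an adjusted p of 0.102, and Zfp106, with 0.834 and 0.158. At an unadjusted p under 0.05 the authors' deposited table had 17 members lower, where 6% of its tested genes were, and 2 higher, where 3.47% were. The limma fit gave Zfp292 an adjusted p of 0.527 at nearly the same difference.

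A value that is not a whole number of reads marks a gene whose level is less certain. Of the 41 members whose 5 values were all within 100 reads, 12 (29.3%) had at least 1 value that was not a whole number of reads within 0.02, against 13.4% of the 419 genes in the same range. Zfp781, Zfp966, Zfp967 and Zfp974, named after their values were seen, had 5 such values each. For members with larger values the check could not be made. The strand setting is not given in the sources used here, so reads of overlapping and antisense genes cannot be told apart either.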

How the data were processed

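RNA of 5 C2C12 samples was sequenced, and the authors deposited a normalized signal per gene. From its values it is taken to be estimated reads scaled by a single factor for each sample. Values of up to 100 reads came out whole within 0.02 reads in 88.7% to 89.2% of cases, which is too few to recover reads, and tests for counts were left out. Per the submitters' processing notes, STAR, Partek and DESeq2 1.34.0 were used with build mm9, in roles not given in the sources used here. The authors' deposited comparison gives each gene a linear ratio and a p-value, adjusted for part of them, and both were copied.

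Genes with a mean of at least 10 were tested on log2(value + 1) with limma 3.58.1 in R 4.3.3 (variance trend, robust, two-sided, Benjamini-Hochberg, threshold 0.05), a fit checked on simulated data. This scale understates the change of low genes. Transcript lengths, coding sequences and 3' UTRs came from GENCODE M21 by symbol (12303 genes directly, 200 through older names; all 286 members). That annotation is on another build than mm9, so no coordinates of genes are given. The length trend was a lowess (span 0.3) per sample, on the longest or the median annotated transcript. The members, lists and tests were chosen with earlier results of these data known. Genes named are the 10 members with the smallest p per direction, the most abundant of each role list, the 6 highest per kb, genes beside the limit of 50 and the 6 co-repressors with the smallest p. Others were chosen after their values were seen. Replicate numbers come from the sample titles.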

Additional observations from a re-analysis of the deposited data

How the results depend on the processing

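Over 16 other settings, 64 summary values were counted as the same as those reported and 16 as moved. That count was lenient. Medians of the members of -0.0042 without knockdown 2 and -0.077 without knockdown 1 counted as the same as -0.041. At an unadjusted p under 0.05, so did 13 members lower without empty vector 3 and 22 with the replicate block, against 18. The count of called genes in the table stayed at 0 except for 28 without empty vector 2, 107 without knockdown 1 and 311 with the replicate block. Members called were 4 with the block, and 0 to 4 when 1 sample was left out. The block, which drops empty vector 3, pairs samples that share only a number: the deviations of same-numbered samples correlated at 0.086 and 0.029 over genes. It put Zfp292 at -0.44 (adjusted p = 5.4e-04), Zfp384 at -0.34, Zfp462 at -0.38 and Zfp469 at -0.65, each past the threshold. Members lower at an unadjusted p under 0.05 were 11 with the longest-transcript trend removed (18 with the median transcript), 4 with a flow cell term, 4 on flow cell B alone, and 6 to 22 when 1 sample was left out. Members higher were 7 without the variance trend, and 0 to 6 when 1 sample was left out. The median of the members was 7.132e-05 with a flow cell term and 7.132e-05 on flow cell B alone, and -0.077 to -0.0042 when 1 sample was left out. Among the genes with a described difference, Atrx turned to 0.0028 with the longest-transcript trend removed (-0.25 with the median transcript), Zfp622 to -0.028 on flow cell B, Zfp207 from -0.086 to 0.052 there, Zfp609 from -0.22 to 0.028 without knockdown 2, Zfp148 from -0.13 to 0.079 with the longest-transcript trend removed, and Trim28 to 0.041 with a flow cell term and on flow cell B and, when 1 sample was left out, ranged from -0.0855 to 0.0395. The cause of these moves was not tested. A wider spacing of the finger pattern gave 3025 matches in place of 2994. No group had 4 samples, so single outlying samples were not tested for. With 5 samples, the precision is limited by the number of libraries and, for members under 100 counts, by depth.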

Other observations

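Below the limit of a mean of 50, 48 further Zfp genes were tested, at means of 12.1 to 47.2 normalized counts. Of them 30 were lower and 18 higher with knockdown, with a median log2 difference of -0.088, and 0 passed by limma. At an unadjusted p under 0.05 there was 1 lower, Zfp965, and 1 higher, Zfp97, both named after their values were seen. Zfp965 had 39.6, 44.4 and 16.8 normalized counts with empty vector and 11.2 and 16.8 with knockdown. Zfp97, just under the limit, had 30.8, 41.2 and 41.4 against 67.1 and 55.6, so its groups did not overlap.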
